A study of Mus musculus with 7 samples.

Results

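The 10 genes described here are the immediate early genes Fos, Fosb, Jun, Junb, Egr1, Egr3, Ier2, Ier3 and Zfp36 together with the stress-induced gene Atf3. They were taken by symbol from a list drawn up with earlier results of these data known. Each has a row in all 7 deposited matrices, so they are 10 of 27998 gene rows in the CD45+ libraries and 10 of 31053 in both CD11b+ pools. The study followed leukocytes of the mouse heart by droplet single-cell RNA sequencing after myocardial infarction, made by permanently tying off the left descending coronary artery. In the CD45+ experiment (3′ kit, version 2), cells came from male C57BL6/J hearts without infarct (steady state, 5 mice pooled) and from infarcted hearts at day 1, day 3 and day 5 (5 mice each) and day 7 (3 mice), with 1 library per time point and with neutrophils reduced before the sort. In the CD11b+ experiment (3′ kit, version 3), myeloid cells of infarcted hearts at day 1 (5 mice), day 3 (5 mice) and day 5 (3 mice) carried Hashtag 1, 2 and 3 and were sequenced as 1 pool. In both, an antibody to CD45.2 injected before death marked cells in the bloodstream so that they could be sorted away, and the tissue was digested with enzymes for 1 h at 37 °C. A separate CD11b+ pool held 7 hashtags from blood and heart of C57BL6/J mice aged 8 to 10 weeks. The labels list a control without surgery, sham surgery at day 1 and day 3, and infarction at day 1 and day 3 for it, but do not pair hashtags with conditions, so each hashtag is reported as a value only. Its heart tissue was broken up mechanically and its blood was kept on ice.

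Immediate early genes are switched on within minutes of a stimulus by factors already present in the cell, and their mRNAs are short-lived. Fos, Fosb, Jun and Junb encode the subunits of AP-1, a paired transcription factor, and Egr1 and Egr3 encode zinc-finger transcription factors. Atf3 binds cyclic AMP response elements and is raised by many kinds of stress. Zfp36, also called tristetraprolin, binds AU-rich elements in cytokine mRNAs and hastens their decay, and Ier3 is a target of NF-kB linked to survival. Digestion of a tissue at warm temperature is itself known to switch many of these genes on.

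RefSeq windows on GRCm38.p6, from 250 bases before to 50 bases after the RefSeq start of a gene, were found for 7 of the 10 genes. Egr1, Egr3 and Ier2 had no window. Parts of 4 are shown because they hold letters that match the binding motifs of CREB/ATF, AP-1 and EGR factors. A match describes the letters and does not show a site in use. Each runs 5′ to 3′ on the strand of its gene, and capitals mark the motif match.
Fos, chr12:85473809-85473844, plus strand, letters of the core of the cyclic AMP response element: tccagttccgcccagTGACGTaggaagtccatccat
Atf3, chr1:191183334-191183356, minus strand, the same core read on the opposite strand: gctattaatagcattACGTCAgc
Jun, chr4:95052245-95052282, minus strand, letters of the spaced AP-1 motif: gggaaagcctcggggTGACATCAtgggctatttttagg
Fosb, chr7:19310072-19310110, minus strand, letters of the EGR motif: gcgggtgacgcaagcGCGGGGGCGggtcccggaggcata
The core TGACGT was found, searching both strands, in the Fos and Atf3 windows and in 7.51% of all 32851 windows. The spaced AP-1 letters TGANNTCA were found in the Jun window and in 14.1% of all windows. The EGR letters GCGNGGGCG were in the Fosb and Zfp36 windows and in 5.55% of all, and a CArG box was in the Zfp36 window and in 1.63% of all. The full TGACGTCA and the AP-1 letters TGANTCA were in none of the 7 windows. The stretch shown for Atf3 lies before a RefSeq start inside the GENCODE gene, which spans chr1:191170296-191218039 on the minus strand. It does not lie before the outermost start of that gene. The last 7 bases shown for Atf3 lie in the first exon of a GENCODE transcript, and the Zfp36 window lies in an annotated first exon and is not shown.

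After filters, 522 to 1793 cells per CD45+ library, 4282 cells of the CD11b+ heart pool and 9999 cells of the blood and heart pool were used. Median depth was 3594 to 9464 UMIs per cell in the CD45+ libraries, 18083 in the CD11b+ heart pool and 4282 in the blood and heart pool. Cells were clustered without the 10 genes, the other immediate early genes and the heat shock genes, and clusters were named from marker genes. Libraries shared at most 28 cell barcodes. The steady-state library stood apart in heat shock mRNA, as described below, and it and the day 7 library, which have no counterpart in the CD11b+ experiment, enter no test. Counts were summed over the cells of a class in each library or hashtag, and levels are given as CPM, the UMIs of a gene scaled to a sum of 1000000 UMIs. Sums of at least 30 cells were kept: 8 of monocytes/macrophages (240 to 1402 cells) and 6 of neutrophils (41 to 993 cells) in the heart. In the CD11b+ heart pool the Ly6G antibody, a neutrophil marker, gave medians of 306 and 336 UMIs in the neutrophil clusters and 104 to 117 in the monocyte/macrophage clusters. Each day has 1 pool of mice per experiment, and the 2 experiments differ in sort and chemistry. With the experiment as a block, the p-values of the day tests rest in part on how far day differences vary between the 2 experiments. Those of the class comparison rest in part on how far the class difference varies over 6 libraries or hashtags. In each fit edgeR also draws the variance of a gene toward that of all genes. This shared part had 13.1 degrees of freedom in neutrophils, 3.8 in monocytes/macrophages and 10.7 in the class comparison. The gene's own part had 2, 2 and 5. The levels of different genes are not compared with each other, since reads were taken from the 3′ end.

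In monocytes/macrophages Ier3 was high on day 1 and lower on day 5, and Atf3 moved the other way. Ier3 stood at 1816, 990 and 583 CPM on days 1, 3 and 5 in the CD45+ libraries and at 2556, 1269 and 870 CPM in the CD11b+ pool. Both day 1 sums lay above all 4 sums of days 3 and 5. The day 5 level was lower than the day 1 level by a log2 difference of -1.85 (SE 0.16, adjusted p = 0.00817, edgeR's quasi-likelihood test with the experiment as a block, Benjamini-Hochberg over all genes). Within the CD45+ libraries that difference was -1.87 and within the CD11b+ pool -1.63. Ier3 (ENSMUSG00000003541) is a short gene at chr17:35821684-35822923 on GRCm38, and Atf3 (ENSMUSG00000026628) spans chr1:191170296-191218039. Atf3 stood at 112, 148 and 277 CPM in the CD45+ libraries and at 160, 313 and 421 CPM in the CD11b+ pool. Its day 5 level was the highest of the 3 days in each experiment, although the CD11b+ day 3 value lay above the CD45+ day 5 value. Atf3 rose from day 1 to day 5 by 1.10 on the log2 scale (SE 0.20, adjusted p = 0.0327, edgeR), by 1.07 and 1.32 within the experiments. Without the CD45+ day 5 library (replicate 1 of day 5) the adjusted p of Atf3 was 0.169, and without the CD11b+ day 5 hashtag (replicate 2) it was 0.114. When cells were classed by their own markers rather than by cluster, the Atf3 difference was 0.82 with an adjusted p of 0.124. Without the experiment as a block neither gene passed, with adjusted p-values of 0.149 for Ier3 and 0.322 for Atf3.

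These 2 genes, 1 higher and 1 lower, were the ones called among the 10. Over all 10687 genes tested in the same comparison 9.3% were called, 3.84% higher and 5.46% lower. Fos followed the order of Atf3 without passing the threshold: 528, 641 and 1240 CPM in the CD45+ libraries and 451, 778 and 925 CPM in the CD11b+ pool. Its log2 difference was 0.88 with an adjusted p of 0.0525. Whether Fos passed depended on the setting. It did with DESeq2 (adjusted p = 0.0151) and with total counts alone (adjusted p = 0.0384, edgeR), and did not in 8 of 17 alternatives. Fosb stood at 38, 106 and 237 CPM in the CD45+ libraries and at 335, 498 and 570 CPM in the CD11b+ pool, so the experiments did not overlap on any of these days. Its log2 difference of day 5 to day 1 was 1.40 (SE 0.40, adjusted p = 0.0819, edgeR), 2.39 within the CD45+ libraries and 0.69 within the CD11b+ pool. Jun (161, 180 and 283 CPM; 186, 271 and 334 CPM) gave 0.57 with an adjusted p of 0.0931. Ier2 (169, 109 and 122 CPM; 108, 92 and 84 CPM) gave -0.67 with an adjusted p of 0.0712. Junb, Egr1 and Zfp36 gave -0.20 to 0.08 with adjusted p-values of at least 0.449, and Egr3 gave -0.87 with an adjusted p of 0.221. The median of the 10 log2 differences was -0.02, beside -0.02 over all genes. None of the 10 was called from day 1 to day 3, where 0.0374% of all genes were, or from day 3 to day 5, where 0% were. Before adjustment 2 and 4 of the 10 had a p under 0.05 in these comparisons, beside 1837 and 774 of all 10687 genes. DESeq2 called 1 and 0 of the 10, beside 493 and 98 of all genes.

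**Figure D1:**
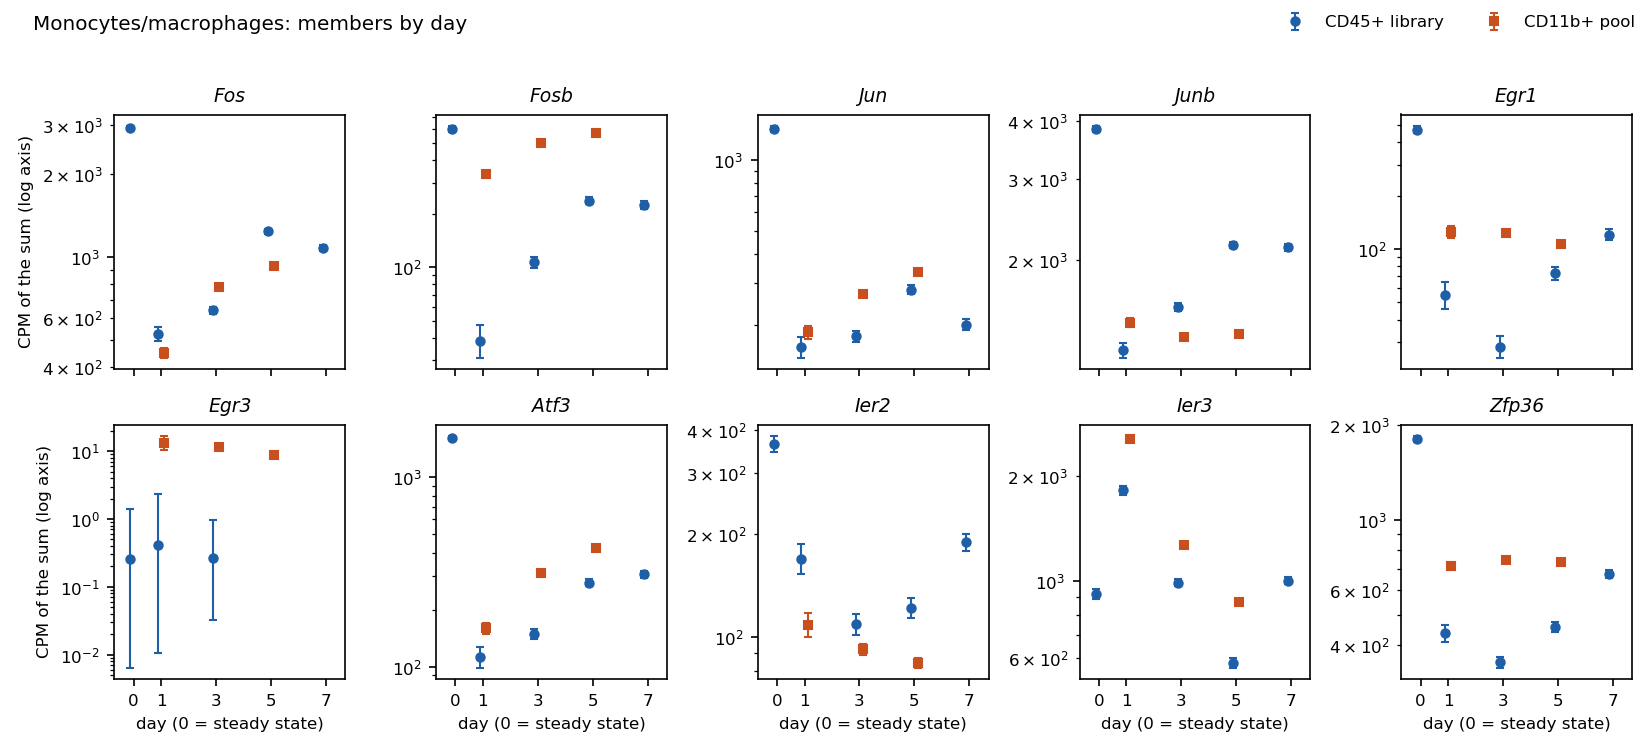
Level in CPM (log axis) of each of the 10 genes in monocyte/macrophage sums, against days after infarction, with day 0 for the steady-state library; points are single libraries or hashtags and bars the exact 95% Poisson interval, which covers counting error only. Ier3 starts at 1816 and 2556 CPM on day 1 and ends at 583 and 870 CPM on day 5, while Atf3 goes from 112 and 160 CPM to 277 and 421 CPM.

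Other values moved with these levels. The summed level of 18 neutrophil markers in the monocyte/macrophage sums was 24440 CPM on day 1 and 648 CPM on day 5 in the CD45+ libraries, and 3102 and 740 CPM in the CD11b+ pool. Of these markers 13 and 12 reached 20 CPM on day 1 against 7 on day 5. Ier3 stood at 787 CPM in the CD45+ day 1 neutrophils themselves, below the 1816 CPM of the monocytes/macrophages beside them. In the CD11b+ pool the order was the other way, with 3369 CPM in the day 1 neutrophils and 2556 CPM in the monocytes/macrophages. The part of neutrophil RNA in the day order was not tested. The make-up of the class also changed with the day: the CD45+ day 1 sum was almost wholly 1 cluster led by Saa3, Cxcl3 and Arg1 (246 of 249 cells), which held few cells of later days. That cluster was given to monocytes/macrophages after the clusters were seen, on its larger number of detected markers.

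Within a cluster, part of the day order of Ier3 and Atf3 was still present. In the CD11b+ pool, the cluster led by Plac8, Arg1 and Chil3 had Ier3 at 2821, 2091 and 2105 CPM and Atf3 at 142, 243 and 302 CPM on days 1, 3 and 5. The cluster led by Pf4 and Spp1, with cells on days 3 and 5, had Ier3 at 947 and 688 CPM and Atf3 at 363 and 447 CPM. In the CD45+ libraries, the cluster led by Ms4a7, Gpnmb and Trem2 had Atf3 at 328, 320 and 296 CPM on days 3, 5 and 7, with no rise. The cluster led by Plac8 and Chil3 had Atf3 at 90, 135 and 81 CPM on those days and Ier3 at 1126, 898 and 1437 CPM. Atf3 was thus higher in the Ms4a7 cluster than in the Plac8 cluster on each of the 3 days, and Ier3 was lower. No test was made within clusters, since each value is from 1 library.

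Day 7 was measured in the CD45+ experiment alone. Ier3 stood there at 1001 CPM, back near its day 3 level of 990 CPM, and Zfp36 at 675 CPM, above its 353 to 456 CPM on days 1 to 5. Egr1 was 120 CPM on day 7 against 28 to 73 CPM on days 1 to 5. Atf3 was 308 CPM and Fos 1079 CPM, near their day 5 levels of 277 and 1240 CPM. With 1 library these differences have no replicate check.

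The steady-state library stood apart. Its monocytes/macrophages (529 cells) had Fos at 2916 CPM, Fosb at 599, Jun at 1352, Egr1 at 473, Atf3 at 1607 and Zfp36 at 1802 CPM. Each of these 6 genes was at least 2-fold above each of the other 4 CD45+ libraries, and 3.35% of 4326 genes with a level of at least 20 CPM were so. Atf3 was 5.22-fold its day 7 level (95% interval 4.97 to 5.49, counting error only) and 14.3-fold its day 1 level (12.7 to 16.3). Jun was 6.74-fold (6.34 to 7.16) and Egr1 3.93-fold (3.61 to 4.27) the day 7 level. Junb (3845 CPM, 1.80-fold over day 7) and Ier2 (364 CPM, 1.93-fold) were higher by less. Ier3 was different: at 916 CPM it was 0.92-fold its day 7 level and 0.50-fold its day 1 level. There is 1 such library, so no test was possible.

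The same library was high in heat shock mRNA. Hspa1a, the inducible chaperone of the heat shock response, stood at 3407 CPM in its monocytes/macrophages against 110 to 397 CPM in the other CD45+ libraries, and the summed level of 12 heat shock genes was 16390 CPM against 4292 to 6052 CPM. The median mitochondrial share was 2.8% against 1.6% to 2.0%. The cells classed as T cells in this library (41 cells) came mainly from a cluster led by Ccl5, Gzma, Nkg7 and Cd3g, which holds NK cell markers as well and was named NK cell when a smaller constant (0.05) was added to the levels in cluster naming. They had Atf3 at 362 CPM and Jun at 362 CPM, against 29 to 33 and 15 to 51 CPM on days 5 and 7. Its 25 fibroblasts, under the 30-cell minimum, had Jun at 2424 CPM and Fos at 3701 CPM. The cluster led by Hspa1a, Mgl2, Cbr2 and Folr2 held 515 of the steady-state cells and 86 cells of day 7. Within it Atf3 was 1638 CPM at steady state and 654 CPM on day 7, a ratio of 2.51 (2.29 to 2.75), and Jun had a ratio of 2.65. The ratio within this cluster was 1.79 for Fos, 1.75 for Fosb, 1.42 for Egr1 and 1.34 for Zfp36, so of the 6 genes above, Atf3 and Jun stayed above 2-fold there. It was 1.29 for Junb, 1.15 for Ier2, 0.73 for Ier3 and 9.42 for Hspa1a. The differences of the library and of the mice without infarct cannot be told apart.

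In neutrophils, Ier3 again fell from day 1 to day 5. It stood at 787, 900 and 485 CPM on days 1, 3 and 5 in the CD45+ libraries and at 3369, 2096 and 1361 CPM in the CD11b+ pool. The day 5 level was the lowest in each experiment, and the CD11b+ values lay above all CD45+ values. The log2 difference of day 5 to day 1 was -2.01 (SE 0.43, adjusted p = 0.0166, edgeR), -1.96 and -2.15 within the experiments. It was the 1 gene of the 10 that was called, and 5.77% of 6187 genes were called, 4.38% in that direction. The call depends on the scaling: the trimmed-mean factors used here ranged from 0.54 to 1.46, and the 18 neutrophil markers summed to 241100 CPM in the CD45+ day 1 neutrophils against 52710 to 112600 CPM in the other 5 sums. With total counts alone, which move the median of all genes by 0.89 on the log2 scale, the Ier3 difference was -1.01 with an adjusted p of 0.0752. Without the CD45+ day 5 library, which has 41 neutrophils, the adjusted p was 0.14, with cells classed by their own markers it was 0.0812, and without the experiment as a block it was 0.407.

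Egr1 in neutrophils stood at 148, 201 and 196 CPM in the CD45+ libraries and at 2028, 1239 and 830 CPM in the CD11b+ pool. The experiments did not overlap. The log2 difference of day 5 to day 1 was -1.53 (SE 0.44, adjusted p = 0.0535, edgeR), -0.84 within the CD45+ libraries and -2.13 within the CD11b+ pool. Under the alternatives it ranged from -2.01 to -0.55. It passed the threshold with DESeq2, with no filter and with the members kept in the clustering. Plain levels in the CD45+ libraries went up from day 1 to day 5, so the fall there holds only after trimmed-mean scaling. Egr3 gave 366, 312 and 232 CPM in the CD11b+ pool and 1, 0 and 0 UMIs in the CD45+ libraries. A count of 0 allows up to 7.08 CPM at day 3 and 28.0 CPM at day 5, so the CD45+ neutrophils lay below the CD11b+ neutrophils beyond counting error. In no heart class of the CD45+ experiment did Egr3 exceed 2 UMIs. Fosb stood at 8, 73 and 28 CPM in the CD45+ libraries, the last from 3 UMIs, and at 289, 472 and 219 CPM in the CD11b+ pool. Both its series peaked on day 3, with no call.

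The other 9 genes in neutrophils did not pass the test from day 1 to day 5, with log2 differences of -0.72 to 0.39 for all but Egr1 and Egr3 (-1.47). Fos went from 89 to 411 CPM in the CD45+ libraries and from 611 to 428 CPM in the CD11b+ pool, opposite ways. Atf3 stood at 63, 241 and 289 CPM and at 249, 429 and 411 CPM, and its difference was 0.39 (adjusted p = 0.606, edgeR); with total counts alone it was 1.38 with an adjusted p of 0.0373. Junb stood at 2135, 2739 and 4536 CPM and at 4621, 4111 and 3797 CPM, and Zfp36 at 372, 482 and 607 CPM and at 1244, 2042 and 1198 CPM. Jun, Junb, Ier2 and Zfp36 lay below 0 after trimmed-mean scaling and above 0 with total counts alone, so they are given no direction. The median of the 10 differences was -0.64, beside -0.02 over all genes. None of the 10 was called from day 1 to day 3 (1.75% of all genes) or from day 3 to day 5 (0%). Before adjustment 1 and 2 of them had a p under 0.05, beside 1071 and 123 of all 6187 genes. DESeq2 called 0 of the 10 in either, beside 129 and 1 of all genes.

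**Figure D2:**
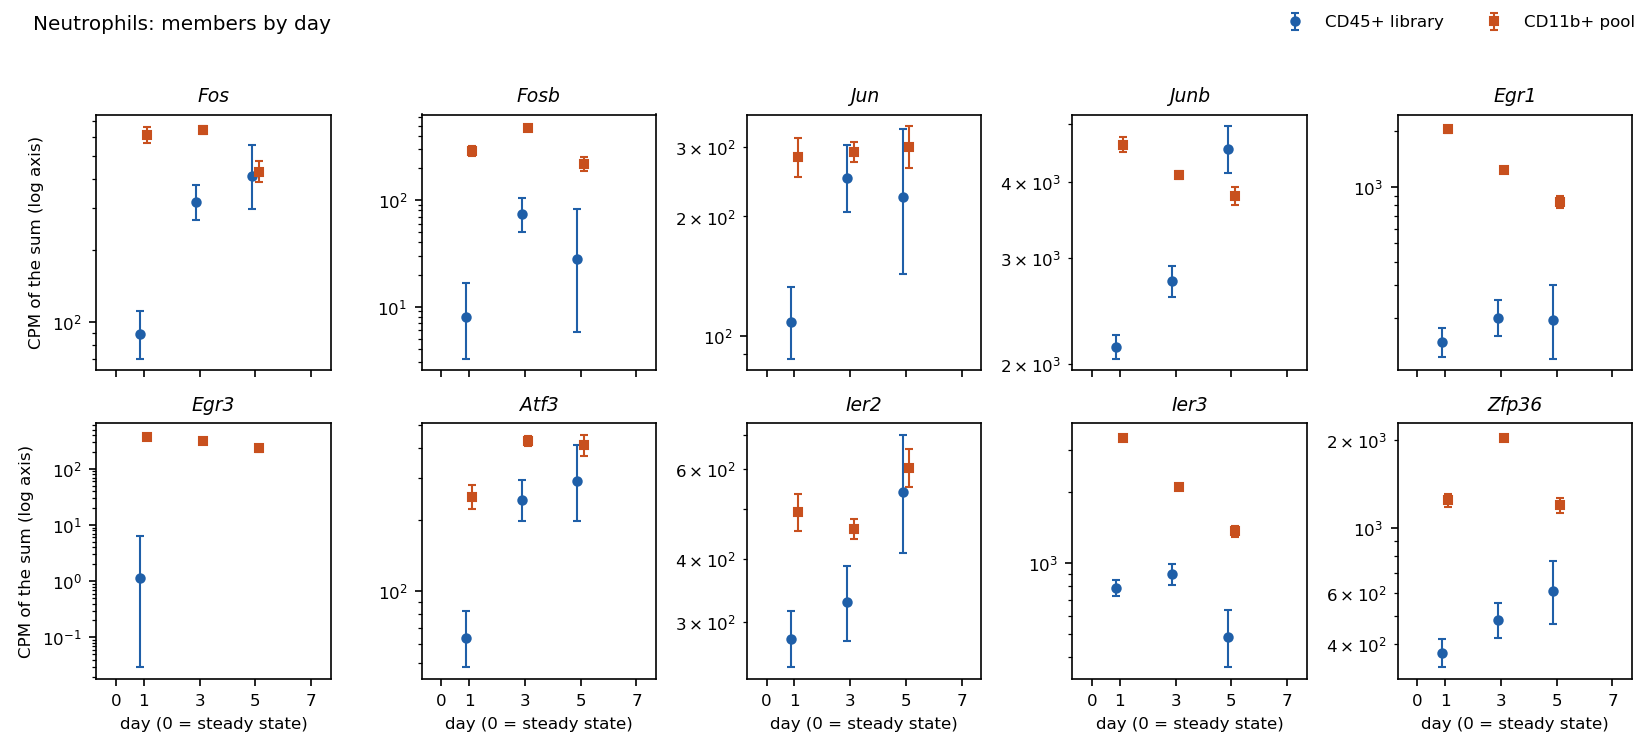
Level in CPM (log axis) of the 10 genes in neutrophil sums against days after infarction, with exact 95% Poisson bars for counting error; values of 0 are left out. Egr1 at 830 to 2028 CPM and Ier3 at 1361 to 3369 CPM in the CD11b+ pool lie above the CD45+ values of 148 to 201 CPM and 485 to 900 CPM on every day.

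Clusters of neutrophils differed in the same genes. In the CD11b+ pool, the cluster led by Retnlg, S100a9 and Lcn2 had Ier3 at 3427, 1389 and 1303 CPM and Atf3 at 228, 661 and 697 CPM on days 1, 3 and 5. The cluster led by Tnf, Icam1 and Dusp2 had Ier3 at 3019, 2287 and 1382 CPM and Atf3 at 371, 366 and 307 CPM. Ier3 was therefore lower on day 5 than on day 1 in both, whereas the higher late Atf3 was seen in the Retnlg cluster. In the CD45+ libraries day 1 neutrophils were a cluster led by Ngp and Retnlg (214 of 216 cells) and those of days 3 and 5 a cluster led by G0s2 and Il1r2, so day and cluster cannot be told apart there.

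**Figure D3:**
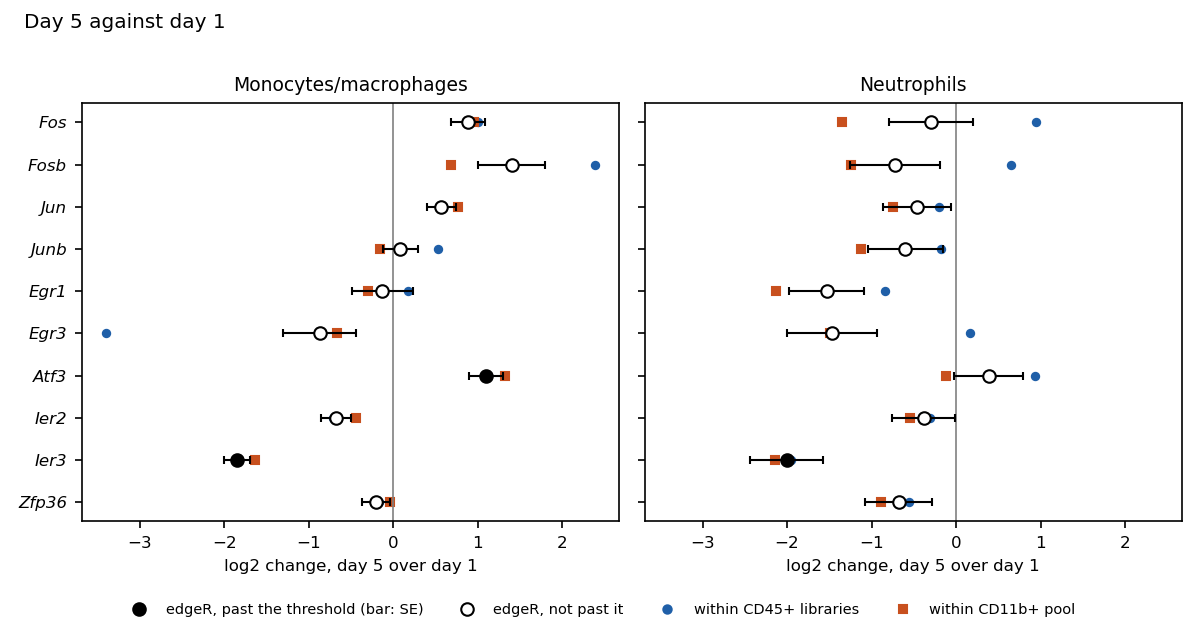
Log2 difference of day 5 to day 1 for each gene in monocytes/macrophages and in neutrophils, with the standard error of the edgeR fit and the value within each experiment. In monocytes/macrophages Atf3 lies at 1.10 and Ier3 at -1.85, and in neutrophils Ier3 lies at -2.01; the others did not pass the adjusted threshold of 0.05.

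Whether the day effects differ between the classes was tested as an interaction over all 12 sums. None of the 10 genes passed, and 0.0197%, 0.511% and 0% of 10175 genes did for day 3 against 1, day 5 against 1 and day 5 against 3. The largest of the 10 for day 5 against 1 was Fosb, 2.30 on the log2 scale with a raw p of 0.0069 and an adjusted p of 0.15. For Ier3 the difference between classes was 0.25 with an adjusted p of 0.806, so its fall in neutrophils is not shown to differ from that in monocytes/macrophages. Before adjustment 0, 3 and 5 of the 10 had a p under 0.05, beside 1156, 1694 and 357 of all 10175 genes. DESeq2 called 0 of the 10 in each, beside 190, 534 and 1 of all genes. From day 3 to day 5 Fos, Fosb, Jun and Atf3 went up in monocytes/macrophages and down in neutrophils within both experiments after trimmed-mean scaling, a pattern shown by 6.9% of all genes. From day 1 to day 5 Jun did so, as did 5.91% of all genes.

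Levels were also compared between the classes themselves, within the same library or hashtag. Egr3, Egr1, Ier2, Junb and Zfp36 were lower in monocytes/macrophages than in neutrophils. In the CD11b+ pool Egr3 stood at 13, 12 and 9 CPM in monocytes/macrophages on days 1, 3 and 5, against 366, 312 and 232 CPM in neutrophils, and the ranges did not overlap. The log2 difference was -4.95 for Egr3 (SE 0.36, adjusted p = 4.49e-08, edgeR with the library as a block). Egr1 gave -3.06, from 28 to 125 CPM in monocytes/macrophages and 148 to 2028 CPM in neutrophils, lower in 6 of 6 libraries or hashtags. Ier2 gave -2.31, Junb -1.55 and Zfp36 -0.94, each with an adjusted p of at most 0.00173 in edgeR's test. With cells classed by their own markers Zfp36 gave -0.65 with an adjusted p of 0.0554. Over all 8576 genes tested 56.9% were called, 23.5% lower and 33.4% higher, so 5 of 10 lower and 0 higher stands beside those shares. Fos gave 0.69 (adjusted p = 0.0809) and Fosb 0.63 (adjusted p = 0.116), each higher in 4 of 6 pairs after scaling. In plain CPM Fos was higher in 5 of 6 and Fosb in 6 of 6. Atf3, Ier3 and Jun gave -0.51, -0.37 and -0.37 and were not called. Zfp36 in plain CPM was above the neutrophil level in the CD45+ day 1 pair (436 against 372 CPM), although it lay below in 6 of 6 after scaling.

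Fitted within each experiment, a comparison added after seeing the data, Fos was called higher in monocytes/macrophages in the CD45+ libraries (1.40, adjusted p = 0.0157, edgeR) and stood at -0.03 in the CD11b+ pool. Ier3 was 0.22 in the CD45+ libraries and was called lower in the CD11b+ pool (-0.94, adjusted p = 0.00829). In the CD45+ libraries Zfp36 (-0.53, adjusted p = 0.161) and Egr3 (-1.50, adjusted p = 0.559, at most 2 UMIs per sum) were not called. There 1 of 10 was called higher and 3 lower, where 28.2% of all genes were called and 16.9% were higher. In the CD11b+ pool 6 of 10 were called, all lower, where 49% of all genes were called and 22% were lower. None of the 10 passed edgeR's test of the difference between experiments, where 0% of all genes did, with a lowest adjusted p of 0.793. Before adjustment 5 of the 10 had a p under 0.05, beside 526 of all 8576 genes. Neutrophil markers counted in monocytes/macrophages moved with the day: in the CD45+ day 1 library they reached 10.1% of their neutrophil level, and 1.0% on day 5, against 3.0% and 1.1% in the CD11b+ pool. Egr3 in monocytes/macrophages of the CD11b+ pool was 3.6% to 3.8% of its neutrophil level. The part of neutrophil RNA in these values was not tested.

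In the other non-neutrophil classes of the infarcted CD45+ libraries with at least 30 cells, Fos, Atf3 and Ier3 lay below the monocytes/macrophages of the same library. B cells of day 7 (963 cells) had Fos at 153 CPM, Atf3 at 42 CPM and Ier3 at 120 CPM, and the cells of day 7 classed as T cells (136 cells, mainly of the cluster with Gzma, Nkg7 and Cd3g) had 124, 33 and 153 CPM. Dendritic cells had Fos at 262, 424 and 378 CPM and Atf3 at 55, 109 and 93 CPM on days 3, 5 and 7. The monocytes/macrophages of days 3, 5 and 7 had Fos at 641 to 1240 CPM, Atf3 at 148 to 308 CPM and Ier3 at 583 to 1001 CPM. Other genes did not keep that order. Ier2 in B cells and in the cells classed as T cells of day 7 was 392 and 377 CPM against 189 CPM in the monocytes/macrophages, and Jun in dendritic cells of day 7 (72 cells) was 234 against 201 CPM. At steady state the cells classed as T cells had Fos at 522 CPM and Atf3 at 362 CPM, and 23 dendritic cells had Atf3 at 395 CPM, below the monocytes/macrophages of that library but with Atf3 above those of days 5 and 7. The 25 steady-state fibroblasts, with Atf3 at 790 CPM and Ier3 at 833 CPM, had Fos above the monocytes/macrophages (3701 against 2916 CPM). Each of these is a single library.

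In the blood and heart pool, whose tissue was not digested with enzymes, most of the 10 genes had a lower median than in the digested heart sums. For some of them the ranges overlapped. In monocytes/macrophages Fos lay between 101 and 197 CPM over the 7 hashtags (median 152), against 451 to 2916 CPM over the 8 digested heart sums. Atf3 lay between 25 and 58 CPM (median 38) against 112 to 1607 CPM, and Ier3 between 14 and 160 CPM (median 26) against 583 to 2556 CPM. Fosb lay between 1 and 6 CPM against 38 to 599 CPM, Junb between 290 and 614 CPM against 1277 to 3845 CPM, and Zfp36 between 145 and 238 CPM against 353 to 1802 CPM. These 6 genes had every digested heart sum above every hashtag, as did 5.68% of 5301 genes. Ier2, Jun, Egr1 and Egr3 did not. Ier2 lay between 165 and 208 CPM in the hashtags and between 84 and 364 CPM in the heart sums. Jun lay between 34 and 262 CPM against 161 to 1352 CPM, and Egr1 between 8 and 87 CPM against 28 to 473 CPM. Egr3 lay between 0 and 3 CPM against 0 to 13 CPM. In neutrophils Junb (1057 to 1526 CPM), Egr1 (5 to 117 CPM) and Atf3 (11 to 49 CPM) lay below all 6 digested heart sums (at least 2135, 148 and 63 CPM), and 6.13% of 4370 genes did so. The other genes overlapped in neutrophils, among them Fos, with 209 to 555 CPM in the hashtags and 89 to 639 CPM in the heart. The experiments differ in tissue, dissociation, sort and chemistry, which cannot be told apart.

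Among the 7 hashtags themselves, 2 differed from the other 5 in some of these genes. This split was made with the values seen, and the share of all genes that separate in the same way was not computed. Hashtags 6 and 7 also had deeper monocytes/macrophages, with medians of 14926 and 14964.5 UMIs per cell against 12134 to 12593 in hashtags 1 to 5. Neutrophil depth did not separate them, with 3412.5 and 3084 against 3152.5 to 3810. In hashtag 7 neutrophils the neutrophil markers summed to 105600 CPM, against 207100 to 263600 CPM in the other hashtags. Heat shock genes there summed to 2613 CPM against 531 to 1298 CPM. Egr1 in neutrophils was 90 CPM in hashtag 6 and 117 CPM in hashtag 7, and 5 to 14 CPM in hashtags 1 to 5. Ier3 in neutrophils was 749 and 345 CPM in hashtags 6 and 7 and 68 to 154 CPM in the others, and in monocytes/macrophages 160 and 153 CPM against 14 to 36 CPM. Jun in monocytes/macrophages was 198 and 262 CPM against 34 to 110 CPM. Atf3 did not follow that order, with 24 and 39 CPM in neutrophils of hashtags 6 and 7 and 11 to 49 CPM in the others. What these hashtags stand for is not given in the labels.

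**Figure D4:**
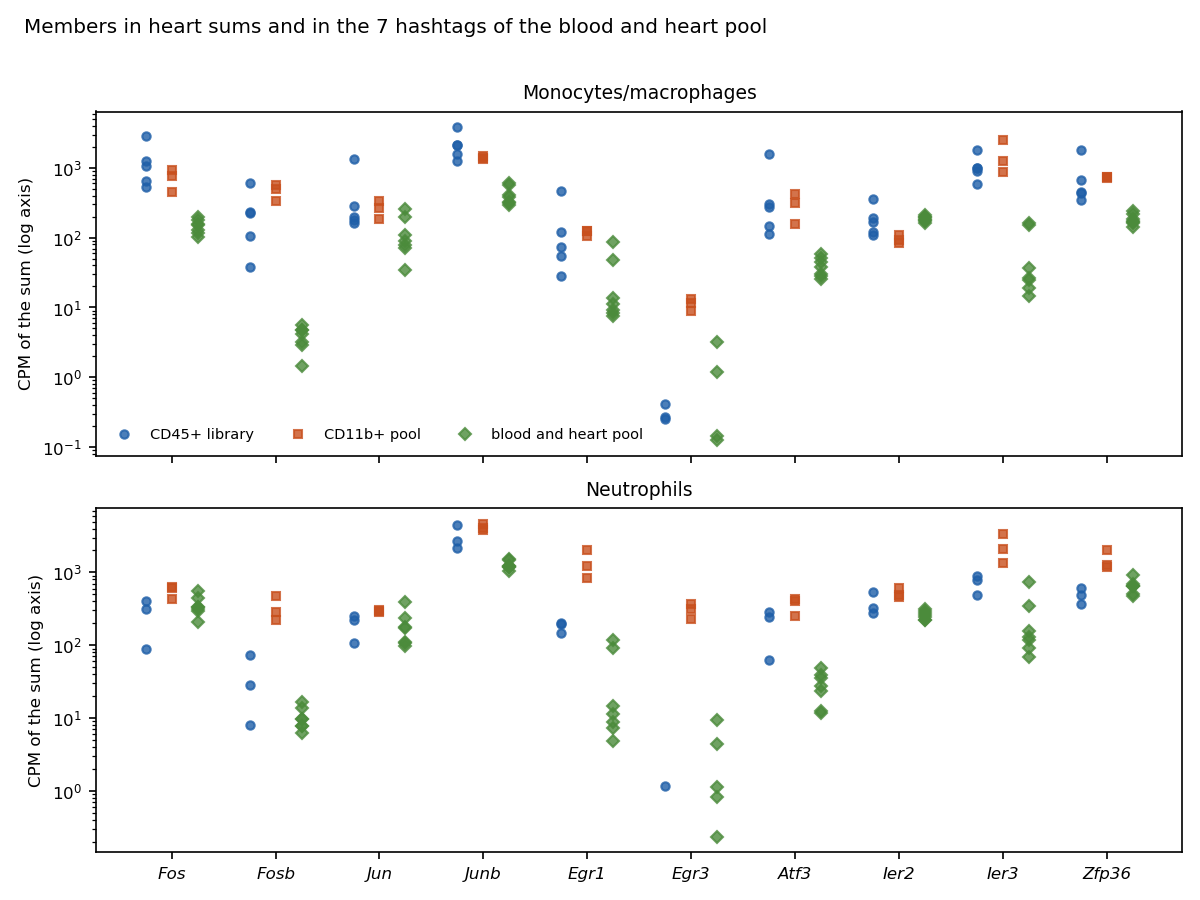
Level in CPM (log axis) of the 10 genes in 7 hashtags from blood and heart and in the sums of the enzymatically digested hearts, for both classes, with 1 point per library or hashtag and values of 0 left out. In monocytes/macrophages the hashtag points of Atf3 (25 to 58 CPM) and Ier3 (14 to 160 CPM) lie below all heart points.

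Genes around the 10 were followed by fixed lists. Of 38 other immediate early genes tested in monocytes/macrophages, 0 rose and 3 fell from day 1 to day 5, with a list median of -0.27 beside -0.02 over all genes. The share of all genes called lower was 5.46%, so 3 of 38 is near that background. Dusp5, a phosphatase that turns off ERK, fell by 1.00 and Btg1, an antiproliferative gene, fell by 0.96 on the log2 scale. In neutrophils 1 of 35 rose, the nuclear receptor gene Nr4a2 (2.02), and 1 fell, Rhob (-2.09), where 5.77% of all genes were called. Between the classes 28 of 37 were lower in monocytes/macrophages and 4 higher, with a median of -1.38 beside 0.20 over all genes and shares of 23.5% lower and 33.4% higher: Btg2 gave -3.03, Gadd45b -2.85 and Klf10 -2.84, while Klf4 gave 3.44. Each named gene had an adjusted p under the threshold of 0.05 in edgeR's test.

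Of 15 tested mRNAs that the protein of Zfp36 is known to bind, 10 fell from day 1 to day 5 in monocytes/macrophages, 1 rose and 4 were not called, while Zfp36 itself was not called. Of all genes 5.46% were called lower and 3.84% higher. The list had a median of -2.05 beside -0.02 over all genes. Cxcl3, a neutrophil attractant, gave -5.86, Il6 -5.00, Il1a -3.22 and Ccl2 -2.58 on the log2 scale, and the anti-inflammatory cytokine gene Il10 gave 1.20. Cxcl3 stood at 11230, 562 and 73 CPM in the CD45+ libraries and at 2970, 355 and 171 CPM in the CD11b+ pool. Zfp36 stood at 436, 353 and 456 CPM and at 714, 747 and 732 CPM in the same sums. In neutrophils 6 of 15 fell and 0 rose over the same days, beside 4.38% of all genes called lower, among them Cxcl3 (-5.23), Ccl4 (-2.58) and Plaur (-2.33), and Ier3, which is on this list too. From day 1 to day 3 in neutrophils 2 of 15 fell, Cxcl3 (-3.94) and Ccl4 (-2.49), beside 93 of all 6187 genes called lower. Neutrophil marker levels in the monocyte/macrophage sums were lower on day 5 as well, as given above, and their part in these values was not tested.

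Around Atf3, 14 genes of the integrated stress response and of related partner factors were tested in monocytes/macrophages, where 0 rose and 3 fell from day 1 to day 5, with a list median of -0.52 beside -0.02 over all genes (3.84% called higher and 5.46% lower). Atf4, which is known to switch on Atf3 under stress, gave -1.04, its target Ddit4 -2.71 and Cebpb -0.69, while Atf3 rose. None of the 13 tested in neutrophils was called. Between the classes 3 of 13 were higher in monocytes/macrophages, among them the macrophage factor Maf (3.61), and 9 lower, among them Ddit3 (-2.73), Batf (-1.93), Cebpb (-1.64) and Jdp2 (-1.18). Their median was -1.18 beside 0.20 over all genes, of which 33.4% were called higher and 23.5% lower. Of the heat shock genes none was called between days in either class (12 tested in monocytes/macrophages, 9 in neutrophils). From day 1 to day 5, 9.3% and 5.77% of all genes were called in these classes. Between the classes 9 of 11 were higher in monocytes/macrophages than in neutrophils, Hspa1a by 2.31, and 1 was lower, Dnaja1 (-0.84). Of all genes 33.4% were called higher and 23.5% lower in that comparison.

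Over the 8 heart monocyte/macrophage sums, centred within each experiment, genes among the most like the mean of the 10 were Il6ra (Pearson r 0.988), mt-Nd4l (0.985), Btg2 (0.980) and Klf6 (0.978). The genes most like Atf3 were Plekho2 (0.990), Serinc3 (0.988), Fos (0.985), Dusp1 (0.984) and Lmna (0.984). These were chosen as the highest of 2444 and 2452 genes and share libraries, and the steady-state sum was the highest point. Over the 7 sums without it, Fos and Atf3 still gave 0.982 and Plekho2 0.974, whereas Btg2 and the mean of the 10 gave 0.567. Between single cells, thinned to 3000 UMIs, the correlations of the 10 genes differed between libraries. Cells with fewer UMIs were left out, as were pairs of genes seldom detected in a library or hashtag. The medians therefore rest on different sets, which include hashtags of the blood and heart pool. The highest medians in monocytes/macrophages were 0.299 for Jun with Egr1 (8 libraries or hashtags) and 0.293 for Fos with Atf3 (12). In neutrophils the highest was 0.290 for Fos with Egr1 (4). Atf3 with Ier3 gave 0.003 in monocytes/macrophages. Single libraries or hashtags reached 0.63 for Fos with Jun (median 0.17, lowest -0.09) and 0.58 for Fos with Zfp36 and for Junb with Zfp36 in monocytes/macrophages.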

How the data were processed

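The deposited matrices hold raw UMI counts per gene and cell barcode, made by the authors from 10x Genomics 3′ libraries. Cell Ranger 3.0.2 made both CD11b+ matrices per the file headers; the version used for the CD45+ libraries is not given in the sources used here. The submitters' processing notes name the builds mm10 and GRCm38. Whether counting used strand is not given either, and Jun and Zfp36 overlap the antisense genes Junos and Gm44710. Barcodes were kept from 200 detected genes and up to 10% mitochondrial counts. The mitochondrial limit alone left out 0.44% to 5.12% of barcodes in the CD45+ libraries, 17.4% in the CD11b+ heart pool and 1.96% in the blood and heart pool. All filters together left more out: the CD45+ day 5 library went from 1017 barcodes to 945 cells, with 16 barcodes above the mitochondrial limit. Barcodes with several hashtags (6.28% and 12.5% in the pools) or none (7.81% and 1.40%) were left out, and Scrublet calls (2 to 6 barcodes per library) were left out of the CD45+ libraries, too few to show that doublets were removed.

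Cells were clustered with scanpy 1.11.5 (2000 variable genes, 30 principal components, Leiden resolution 0.5) with 62 genes left out. Clusters were named from marker genes as monocytes/macrophages, neutrophils, dendritic, B or T cells. Counts were summed per class and library or hashtag, with at least 30 cells. The fit was edgeR 4.0.16 (quasi-likelihood, R 4.3.3) with TMM factors, day and experiment as terms, and Benjamini-Hochberg adjustment over all genes passing filterByExpr, at 0.05; tests are two-sided. The class difference took the library or hashtag as a block. All 10 genes passed the filter in each fit as designed; Egr3 fell out of some alternatives, among them 3 of the 6 class comparisons that leave out 1 library. Levels at steady state, at day 7, in lymphoid classes and in the blood and heart pool have 1 library or hashtag each and no test. Their exact Poisson intervals at 95% cover counting error only, as does the limit that a count of 0 allows (3 counts).

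The fit was tested on simulated data with 200 genes changed by 2 on the log2 scale: 64% were recovered in the neutrophil fit, 63.5% in the monocyte/macrophage fit, 89% for the class difference and 10.5% for the interaction (day 3 against day 1 in the day fits and the interaction). The alternatives were total counts alone, DESeq2 1.42.0, no filter, no block, leaving out each sum, 2 days only, other clusterings and namings, other mitochondrial limits and thinned cells. The 10 genes and the lists were chosen with earlier results of these data known. Each of the 10 is named. From each other list at most 4 genes per comparison and direction are named, those with the largest change among genes past the threshold with at least 20 CPM on average and the same direction in both experiments. The likeness genes are taken from the 5 with the highest Pearson r. Some genes that these rules select are not reported here. The antibody counts other than Ly6G and the hashtags were not analysed here.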

Additional observations from a re-analysis of the deposited data

Results flagged for a closer look

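The following results were picked out because, within both experiments, the gene went up in monocytes/macrophages and down in neutrophils between the same days. The difference between the classes was tested as an interaction, and none passed after adjustment over all genes. For Fosb, day 5 against day 3, the difference between classes was 2.51 on the log2 scale (adjusted p = 1 in edgeR's quasi-likelihood test). Fosb stood at 106 and 237 CPM on days 3 and 5 in CD45+ monocytes/macrophages and at 498 and 570 CPM in those of the CD11b+ pool. In neutrophils it stood at 73.2 and 28.0 CPM (31 and 3 UMIs) and at 472 and 219 CPM. For the same days the difference was 1.20 for Fos, 1.02 for Jun and 1.07 for Atf3, each with an adjusted p of 1 in edgeR's test. Without scaling factors the neutrophil levels of Fos and Atf3 went up in the CD45+ libraries over these days (319 to 411 and 241 to 289 CPM), so the opposite directions of these genes there hold only after trimmed-mean scaling. The same is true of Jun in the CD11b+ pool, with 290 and 300 CPM. For Jun, day 5 against day 1, the difference was 1.13 (adjusted p = 0.222, edgeR), and here too the plain levels in neutrophils went up, from 108 to 224 CPM and from 282 to 300 CPM. Opposite directions of this kind were seen in 6.9% of 10175 genes for day 5 against day 3 and in 5.91% for day 5 against day 1. The simulated check of this model was run for day 3 against day 1, where it recovered 10.5% of changed genes, and not for the days above.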

How the results depend on the processing

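The number of the 10 genes that were called from day 1 to day 5 in monocytes/macrophages was 2. It was 5 with DESeq2, 4 with no filter or with total counts alone and 1 with classes from each cell's markers. It was 0 with no replicate block (no term for the experiment). With 0.05 added in cluster naming this class lost its CD45+ day 1 sum, so no count is given. Of all genes in monocytes/macrophages, DESeq2 called 1646 of 10687, no filter 1749 of 17949 and total counts alone 811 of 10687. Classes from each cell's markers called 947 of 10749 and no replicate block 0. In neutrophils DESeq2 called 345 of 6187 genes, no filter 614 of 13913 and the members kept 419 of 6184. Each cell's markers gave 45 of 7730, 0.05 added in naming 43 of 4978, only the 2 days compared 115 of 5477 and no replicate block 0. Of the 10, the number in neutrophils was 1 over these days, and 2 with DESeq2, with no filter or with the members kept in the clustering. It was 0 with 0.05 added in naming, classes from each cell's markers, only the 2 days compared or no replicate block. Leaving out 1 sum gave 1 to 5 in monocytes/macrophages and 0 to 5 in neutrophils. From day 1 to day 3 in monocytes/macrophages 0 became 1 with DESeq2, thinned cells or no filter. From day 3 to day 5 there 0 became 4 with only the 2 days compared. Counts of this class for these days with 0.05 added in naming, or with 1 sum left out, are not given. A day then rests on a single sum. In neutrophils leaving out 1 sum gave 0 to 3 from day 1 to day 3 and 0 to 1 from day 3 to day 5, where only the 2 days compared gave 1. For the difference between classes, day 5 against day 1 gave 2 with no filter and 0 to 5 when leaving out 1 sum, and day 5 against day 3 gave 1 with no filter or only the 2 days compared and 0 to 1 when leaving out 1 sum. The 5 called between monocytes/macrophages and neutrophils became 8 with 0.05 added in naming, where 5061 of all 8722 genes were called. They ranged from 4 to 7 when leaving out 1 library. The low of 4 arose because Egr3 was below the filter without any 1 of the 3 CD11b+ hashtags; the 5 genes kept their calls in each such fit that tested them. The naming with 0.05 added leaves unnamed the CD45+ day 1 monocytes/macrophages and a CD11b+ pool cluster of 998 cells counted as neutrophils otherwise, and so tests fewer sums and fewer neutrophils; for the others the cause was not tested. No called value changed sign under any alternative run, while 107 of 1683 values of single genes changed sign without a call in either setting. Ier3 from day 1 to day 5 ranged from -1.96 to -1.60 in monocytes/macrophages, where of the 17 alternatives only no replicate block ended its call, and from -2.34 to -1.01 in neutrophils, where 6 of 17 alternatives ended it. Atf3 in monocytes/macrophages ranged from 0.82 to 1.39 and lost its call in 4 of 17. The counts of steady-state genes (6) and of genes above the blood and heart pool (6 and 3) were the same under each alternative run; trimmed-mean scaling was not run for the latter, whose factors were computed apart.

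The number of all genes called moved more: from day 1 to day 5 it was 994 in monocytes/macrophages, with 0 to 3162 under the alternatives, and 357 in neutrophils, with 0 to 1159. From day 1 to day 3 it was 4 (0 to 2144) and 108 (0 to 717), from day 3 to day 5 it was 0 (0 to 945) and 0 (0 to 33), and between the classes 4876 (1718 to 6616). For the interaction it was 2 (0 to 364), 52 (0 to 772) and 0 (0 to 42). From day 1 to day 3 in monocytes/macrophages no filter called 544 of 17949 genes and thinned cells 114 of 6534. From day 3 to day 5, only the 2 days compared called 909 of 11747 there and 30 of 5472 in neutrophils. For the interaction no filter called 430 of 18189 for day 5 against day 1 and 18 of 18189 for day 5 against day 3. Only the 2 days compared called 42 of 10758 for day 5 against day 3. Total counts alone moved the median of all genes in neutrophils to 0.68 for day 3 and 0.89 for day 5 against day 1, to 0.22 in monocytes/macrophages for day 5 against day 1 and to 0.57 between the classes. With them, 1071 genes were called higher and 88 lower in neutrophils from day 1 to day 5, against 86 and 271 with trimmed-mean factors, and 495 higher and 316 lower in monocytes/macrophages, against 410 and 584. The CD45+ day 5 neutrophils, with 107134 UMIs in 41 cells, set the lowest depth of any sum tested.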
